A study of Homo sapiens with 4 samples.

Results

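The miR-29 family was followed in the small RNAs that stayed bound to RNA probes in pull-downs from HGC27 and AGS, both established lines of human gastric cancer. Its members were taken by name from the count table, where 3 of 843 entries were mature members: hsa-miR-29a-3p, hsa-miR-29b-3p and hsa-miR-29c-3p. All cells of both lines, those probed as controls included, carried a lentivirus that stably overexpressed the 3′-UTR (the untranslated end of the messenger RNA) of the fibronectin gene, FN1. In a pull-down, in vitro transcribed and biotinylated RNA on streptavidin beads is mixed with a lysate, and the RNA that stays on the beads is sequenced. Lysates of each line met either of 2 probes to the FN1 3′-UTR, labelled positive and negative, which gave 4 libraries in 4 groups of 1. The study's methods speak of antisense RNA on the beads and the labels of a transcript or its antisense, but neither ties a strand to the positive or the negative probe, and no strand is assigned to any ratio here. The comparison of the probes addressed which miRNAs are recovered with the FN1 3′-UTR, and no library of total input RNA was analysed here, so the values are amounts on the beads and not levels in the cells.

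MicroRNAs are short RNAs that guide Argonaute proteins to messenger RNAs, mostly by pairing of the seed, bases 2 to 8, with the 3′-UTR of the target. The miR-29 family is best known for holding down genes of the extracellular matrix, collagens above all, and for falling in fibrosis. Its members are cut from hairpins in a pair of gene clusters, and the other arm of each hairpin, the 5p strand, is usually degraded.

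The mature sequences are shown because all members share a seed and differ only downstream of it. They are those of RefSeq (GRCh38.p14), identical to the deposited ones, with the seed in capitals.
hsa-miR-29a-3p: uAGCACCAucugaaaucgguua
hsa-miR-29b-3p: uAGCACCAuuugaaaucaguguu
hsa-miR-29c-3p: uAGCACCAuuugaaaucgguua
With positions counted from 1 at the 5′ end and the first-named member's base first, miR-29a-3p and miR-29c-3p differ by C10U alone. miR-29a-3p and miR-29b-3p differ by C10U, G18A, U21G and A22U, and miR-29b-3p is 1 base longer. The seed AGCACCA was found in 3 entries of the table, the members themselves, and in 0 others, whether known or predicted by the authors. None of the 4 annotated 5p arms (hsa-miR-29a-5p, hsa-miR-29b-1-5p, hsa-miR-29b-2-5p and hsa-miR-29c-5p) was listed.

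The loci lie on the minus strands of chromosomes 7 and 1. Mature miR-29a-3p is read from chr7:130876748-130876769 in MIR29A. The sequence of miR-29b-3p occurs at 2 places in the genome, chr7:130877467-130877489 in MIR29B1 and at chr1:207802450-207802472 in MIR29B2, and its single count cannot be split between them. miR-29c-3p lies at chr1:207801865-207801886 in MIR29C. On chromosome 7 the hairpins are 648 bases apart and on chromosome 1 they are 503 bases apart. In the GENCODE release 29 annotation, both hairpins on chromosome 1 lie within an exon of the long non-coding RNA MIR29B2CHG. MIR29B1 lies within an exon of LINC-PINT, whose annotated exon overlaps only the edge of MIR29A.

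Family members were present in every library, and miR-29a-3p made up nearly all of the family. miR-29a-3p had 1008 counts in HGC27 with the negative probe, 250 in HGC27 with the positive probe, 972 in AGS with the negative probe and 150 in AGS with the positive probe. In each line it was higher with the negative probe. In lysates of many cells, a miRNA carried by fewer cells and one with less RNA per cell cannot be told apart. It was 96.9%, 94.0%, 97.2% and 96.8% of the family's counts in these libraries, and it stood at rank 64 of 574, 83 of 609, 41 of 342 and 69 of 361 listed entries.

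miR-29b-3p, the member with 2 gene copies, had 21, 13, 24 and 5 counts in the same order of libraries. miR-29c-3p had 11, 3 and 4 counts and was not listed in AGS with the positive probe. The lowest listed count in any library was 2, so a blank can stand for a count below that. Both minor members were therefore measured with few counts, and how reads with a mismatch were assigned is not given in the sources used here, which leaves counts of miR-29a-3p and miR-29c-3p uncertain against each other.

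Per 100000 counts of the library, miR-29a-3p reached 69.4 (95% Wilson interval 65.2 to 73.8) and 19.3 (17.0 to 21.8) in HGC27 with the negative and the positive probe, and 32.9 (30.9 to 35.0) and 9.82 (8.37 to 11.5) in AGS. These 4 intervals were apart from each other. For miR-29b-3p the values were 1.45 (0.945 to 2.21), 1.00 (0.586 to 1.72), 0.812 (0.546 to 1.21) and 0.327 (0.140 to 0.766). Neighbours in that order had overlapping intervals, but HGC27 with the negative probe and AGS with the positive probe were apart. miR-29c-3p followed at 0.757 (0.423 to 1.36), 0.231 (0.0787 to 0.680) and 0.135 (0.0526 to 0.348). Here too neighbours overlapped, but with the negative probe the intervals of HGC27 and AGS were apart. Such intervals cover counting error only, since reads copied by PCR are not independent molecules and no group had a second library.

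**Figure D1:**
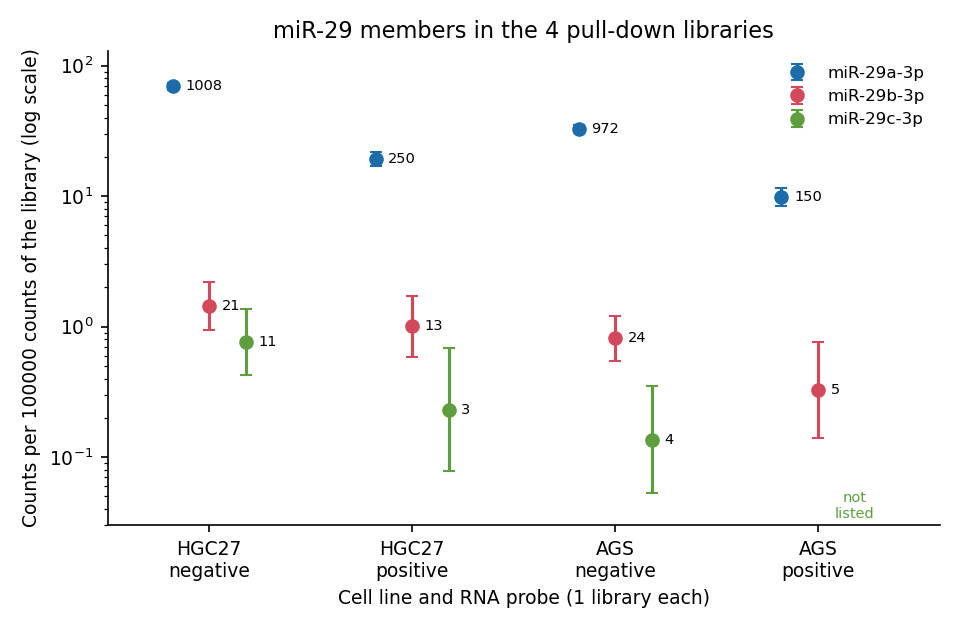
Counts of miR-29a-3p, miR-29b-3p and miR-29c-3p per 100000 counts of the library (log axis) in each of the 4 libraries, with 95% Wilson intervals as bars and the raw count beside each point. miR-29a-3p lies between 9.82 and 69.4 and above the other members in every library, and miR-29c-3p was not listed in AGS with the positive probe.

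The libraries themselves were uneven. They held 1296853 to 2955078 counts over 342 to 609 listed entries, and miR-372-3p, a stem cell miRNA, took 80.8% of the counts in AGS with the negative probe and 37.5% with the positive probe, but 0.178% and 0.300% in HGC27. The lines also differed in marker miRNAs. The 6 epithelial markers (the miR-200 family and miR-203a-3p) had summed scores of 780 and 371 in HGC27 and 10294 and 821 in AGS with the negative and positive probe. The 5 mesenchymal markers had 3521 and 3616 in HGC27 and 11 and 39 in AGS. Near-equal sums in HGC27 hide moves in both directions, with log2 ratios of the positive to the negative probe from -6.91 (miR-199a-3p) to 2.26 (miR-143-3p). Of the 4 blood cell markers, the summed score was 1 in HGC27 with the negative probe and 0 elsewhere. The part of these differences between libraries in the results on the family was not tested.

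The main comparison used the score the authors deposited, tags per 1000000 rounded to whole numbers. A ratio was (score + 1) with the positive probe over (score + 1) with the negative probe, so that a value below 1, or below 0 on the log2 scale, means less of the miRNA with the positive probe. Folds and their exact conditional intervals came from the counts, scaled by the library divisor that the score implies. With 1 library per group these ratios have no replicate check.

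miR-29a-3p was lower with the positive probe in both lines. In HGC27 its score was 347 with the negative probe and 90 with the positive probe, a log2 ratio of -1.94, and from the counts a level 3.83-fold lower (95% interval 3.33 to 4.42). In AGS the score was 135 and 35, a log2 ratio of -1.92, and the level was 3.86-fold lower (3.24 to 4.61). By this score the fold in AGS divided by that in HGC27 was 0.994, with an interval for counting error only of 0.791 to 1.25. The log2 ratio of miR-29a-3p in AGS moved with the scaling, to -2.69 with raw counts, -2.94 with TMM, -2.30 with DESeq2 size factors and -3.44 per table total without miR-372-3p (TMM and the size factors scale libraries by their typical entry), while in HGC27 it was -2.01 to -1.75 under the same 4. The ratio of the folds of the lines, with 1 added to each level, then ran from 0.330 to 0.681, so whether the lines differed in this fold depended on the scaling.

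miR-29b-3p was also on the low side, with less precision. Its score was 7 and 5 in HGC27, a log2 ratio of -0.42 and a fold from the counts of 0.651 (0.300 to 1.36), an interval that takes in no difference. In AGS the score was 3 and 1, a log2 ratio of -1.0 and a fold of 0.350 (0.104 to 0.936). By the deposited score the ratio of the folds of the lines for miR-29b-3p was 0.538 (0.130 to 1.98), an interval that takes in no difference.

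miR-29c-3p had 11 counts with the negative probe and 3 with the positive probe in HGC27, a ratio of scaled counts of 0.287 with an interval of 0.0514 to 1.09. AGS gave 4 counts and a score of 1 with the negative probe and no listed count with the positive probe, and no fold is given. The sum of the family followed miR-29a-3p, with counts of 1040 and 266 in HGC27 and 1000 and 155 in AGS, and log2 ratios of -1.89 and -1.92.

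Many other entries had ratios as low. A ratio of at most 0.5 was reached in HGC27 by miR-29a-3p and miR-29c-3p, against 34.0% of the 755 entries with a score above 0 in either library of that line. In AGS it was reached by miR-29a-3p and, exactly at the threshold, by miR-29b-3p (scores of 3 and 1) and miR-29c-3p (1 and not listed), against 28.7% of 363 entries. Among entries that reached 10 counts with either probe, miR-29a-3p was at position 58 of 366 from the lowest ratio in HGC27 and 44 of 230 in AGS. The median log2 ratio of those entries was -0.12 in HGC27 and 0.42 in AGS. Relative to this median miR-29a-3p stood at -1.82 and -2.33, and miR-29b-3p at -0.30 and -1.42.

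**Figure D2:**
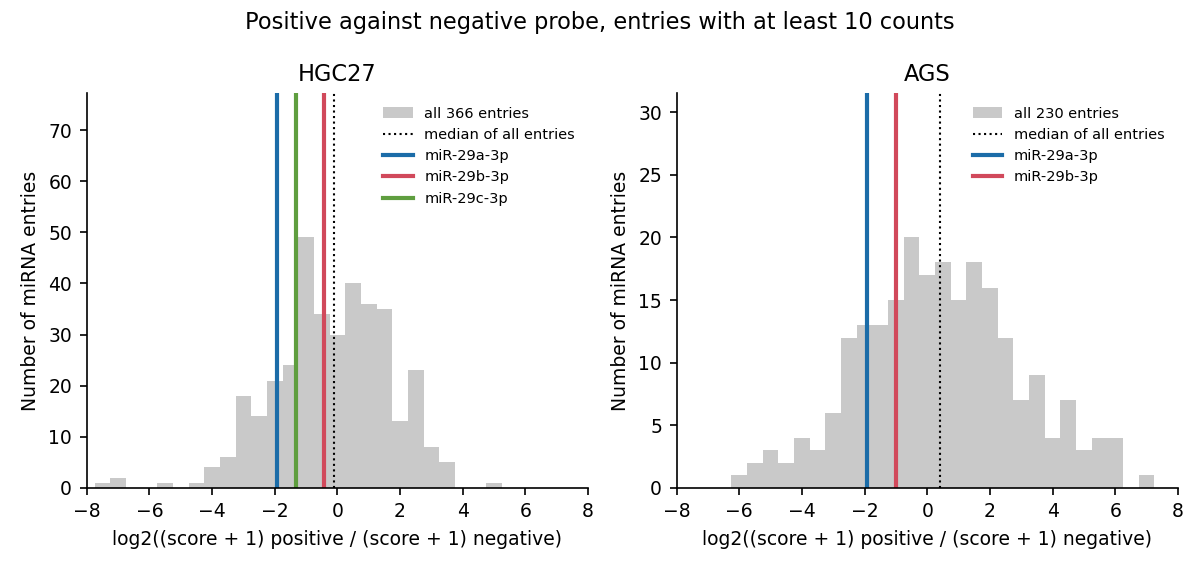
Number of miRNA entries by log2 ratio of the positive to the negative probe, from score + 1, for entries with at least 10 counts in HGC27 (366 entries) and AGS (230 entries), with coloured lines at the miR-29 members and a dotted line at the median. miR-29a-3p lies at -1.94 and -1.92, below the medians of -0.12 and 0.42 and the lower quartiles of -1.24 and -1.26. In HGC27 15.6% of the entries were lower still, and in AGS 18.7%.

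The balance between members does not depend on how libraries are scaled. In HGC27 there were 48.0 counts of miR-29a-3p for each count of miR-29b-3p with the negative probe and 19.2 with the positive probe, an odds ratio of 0.401 (exact conditional 95% interval 0.189 to 0.884). In AGS the odds were 40.5 and 30.0, with an odds ratio of 0.741 (0.271 to 2.52). The excess of miR-29a-3p was smaller with the positive probe in HGC27, with an interval that left out 1 but rested on 21 and 13 counts of miR-29b-3p. The interval in AGS took in no difference and also the value of HGC27. Among the odds ratios computed between members for the probes and the lines, no other interval left out 1. For miR-29a-3p against miR-29c-3p in HGC27 the odds were 91.6 and 83.3, with an odds ratio of 0.909 (0.238 to 5.11).

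A single test with more than 1 library per probe was possible when the lines stood in for replicates. The raw counts of all 4 libraries were fitted in edgeR with the cell line and the probe as terms and TMM scaling, which sets library sizes so that most entries do not differ. Of 271 entries tested, 19 passed an adjusted p of 0.05 (7.01%), 11 higher and 8 lower with the positive probe. No member was among them. The log2 fold change of miR-29a-3p was -2.35 ± 1.17 (SE), lower in 2 of 2 lines, with an unadjusted p of 0.0455 and an adjusted p of 0.228 by edgeR's quasi-likelihood test. miR-29b-3p had -1.40 ± 1.06 and an adjusted p of 0.431, also lower in 2 of 2 lines. miR-29c-3p had too few counts to be tested. The fit has 1 residual degree of freedom, which is the difference of the probe effect between the lines. edgeR's estimate of the spread was pooled across the entries tested (infinite prior degrees of freedom). The SE and p of a member therefore rest on that pooled spread and not on the member's own. The count of calls ran from 0 to 49 over the alternative settings, whereas miR-29a-3p stayed below 0 in 8 of 8 of them with adjusted p from 0.0967 to 0.690.

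Between the lines, the direction for the family depended on the scaling. By the deposited score miR-29a-3p was 2.56-fold lower in AGS than in HGC27 with the negative probe (95% interval 2.34 to 2.80) and 2.58-fold lower with the positive probe (2.10 to 3.18), but under TMM its log2 ratio was 2.11 and 0.92, higher in AGS. The raw counts with the negative probe were 972 in AGS and 1008 in HGC27. By the deposited score, 89.1% of 594 entries with the negative probe and 77.3% of 666 with the positive probe had a ratio of at most 0.5, and so had each member with counts in both libraries. The median entry with at least 10 counts had a log2 ratio of -2.81 and -2.58 by this score, in libraries of which miR-372-3p took a large share in AGS.

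A scaling shifts all entries of a library together, so by itself it leaves the distance of miR-29a-3p from the median entry unchanged. That distance can change only through the 1 added to each level and through rounding, so it is no check on the scaling. It changed little in the probe comparison of HGC27 and more in the line comparison. In the line comparison miR-29a-3p was above the median by 1.45 to 2.43 (log2) with the negative probe over 6 scalings. With the positive probe it was above by 1.25 to 2.04. In the probe comparison it was below the median, at -1.83 to -1.82 in HGC27 and -2.49 to -2.33 in AGS. miR-29b-3p was above the median of the line comparison by 1.81 to 2.61 and by 1.00 to 1.43. In the edgeR fit, 81 of 271 entries differed between the lines (29.9%), 21 higher and 60 lower in AGS (15 and 154 with library totals in place of TMM), and again no member did. The log2 fold change of miR-29a-3p was 1.52 ± 1.14 (SE), with an adjusted p of 0.359 under TMM, which turned to -1.03 with library totals, and miR-29b-3p had 1.43 ± 1.07 and an adjusted p of 0.359, which turned to -1.17.

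**Figure D3:**
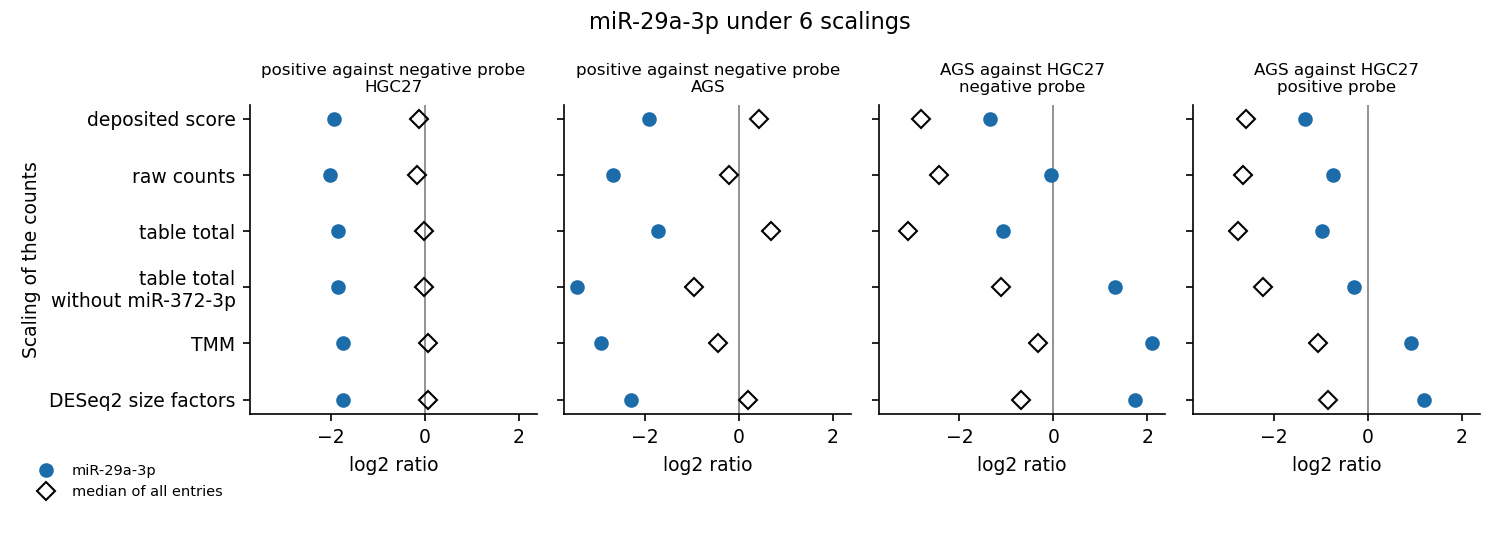
Log2 ratio of miR-29a-3p (filled circles) and of the median entry with at least 10 counts (open diamonds) in the 4 comparisons under 6 ways of scaling the counts. For the probes the circles stay below 0 and below the diamonds, and for the lines they cross 0 between the deposited score (-1.36 and -1.34) and TMM (2.11 and 0.92) while staying above the diamonds. Each scaling shifts circle and diamond together, apart from the added 1 and rounding.

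The miRNAs whose scores over the 4 libraries ran most like those of miR-29a-3p were sought among 189 known entries with at least 100 summed counts, by distance between centred log2(score + 1) values. The nearest was miR-30d-5p at 0.407, with 646, 207, 582 and 87 counts in HGC27 negative, HGC27 positive, AGS negative and AGS positive. miR-99b-5p (0.602) and miR-30b-5p (0.634) followed. miR-99b-5p was far more abundant, with 85332, 16992, 113717 and 11201 counts. For miR-29b-3p the nearest were miR-548o-3p (0.566), miR-7-5p (0.776) and miR-10a-5p (0.962), and for miR-29c-3p they were miR-548k (0.639), miR-425-5p (0.677) and miR-548o-3p (0.709). For the minor members the distances rest on scores of 7 or less.

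Other miRNAs studied in matrix turnover, fibrosis and epithelial-mesenchymal transition, 22 in all without the miR-29 family, were set beside it. In HGC27 17 of them had at least 10 counts, 14 had a log2 ratio below 0, 6 were at most 0.5 and 1 at least 2, and the median log2 ratio was -0.75. Over all 366 entries with at least 10 counts in that line, 51.1% were below 0 and 33.3% at most 0.5, so the 6 of 17 were near the background. In AGS 16 list members had at least 10 counts, of which 13 were below 0, 12 at most 0.5 and 1 at least 2, with a median of -1.76. Over all 230 such entries in AGS, 41.3% were below 0 and 31.3% at most 0.5. The miR-29a-3p values of -1.94 and -1.92 were below both list medians. The lowest in HGC27 were miR-19b-3p (-2.75), of the miR-17-92 cluster, and miR-30b-5p (-1.81), and the highest were miR-429 (1.00), of the miR-200 family, and miR-199a-5p (0.81). In AGS the lowest were miR-200b-3p (-5.68) and miR-200c-3p (-3.27), which restrain epithelial-mesenchymal transition, and the highest were miR-21-5p (1.30), which is raised in many fibrotic tissues, and miR-192-5p (0.94). Of 15 list members with values in both lines, 11 were below 0 in both, as were 66 of all 193 such entries (34.2%). Many list members belong to the same families (miR-30, miR-200 and miR-26), so they do not count as independent entries. The list was chosen with earlier results of these data known, and it was not tested as a set.

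**Figure D4:**
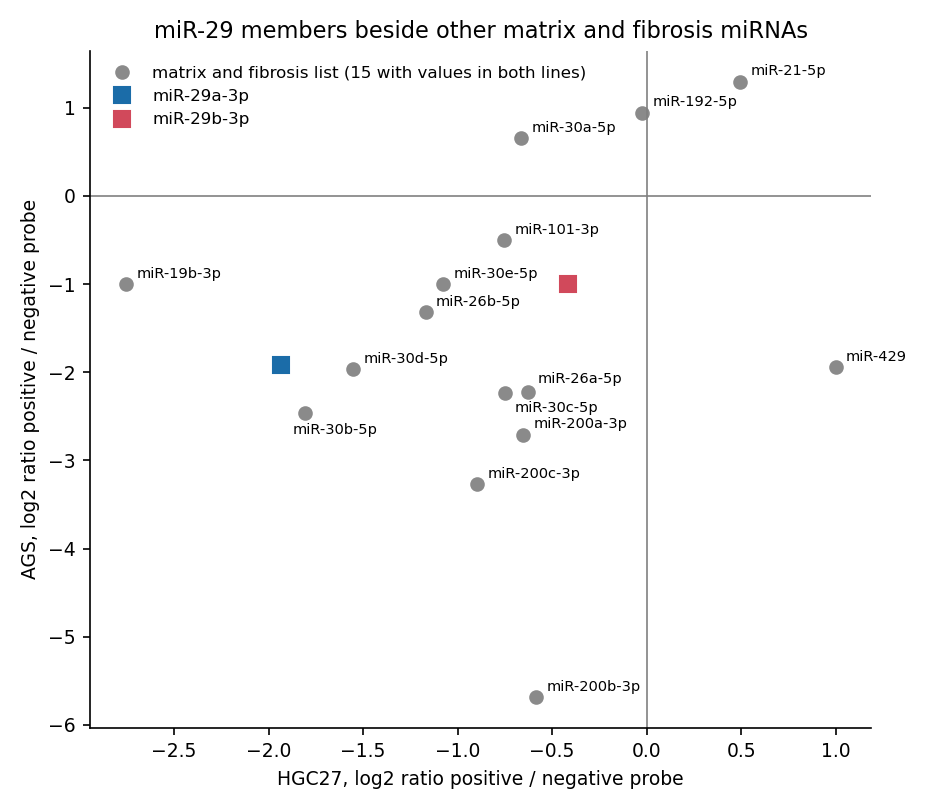
Log2 ratio of the positive to the negative probe in HGC27 (horizontal axis) and AGS (vertical axis) for 15 matrix and fibrosis miRNAs (grey) and for miR-29a-3p and miR-29b-3p (coloured squares). miR-29a-3p lies in the lower left at -1.94 and -1.92, as do 11 of the 15, and miR-29b-3p lies at -0.42 and -1.0.

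Base composition moved weakly with the probe ratio, a check chosen after the data were seen. Among known entries with at least 10 counts, the rank (Spearman) correlation of the log2 ratio with the G and C share was 0.27 in HGC27 (296 entries). In AGS it was 0.20 (199 entries). The members hold 40.9% (miR-29a-3p), 34.8% (miR-29b-3p) and 36.4% (miR-29c-3p) G and C. The median log2 ratio of known entries with 30% to 45% G and C was -0.80 over 96 entries in HGC27 and -0.74 over 73 in AGS, against 0.47 over 53 and 1.48 over 32 entries with 60% or more. The part of base composition in the ratios of the members was not tested.

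The seed of the family was then looked for in annotated 3′-UTRs (GENCODE release 29, GRCh38, 1 transcript a gene), as the letters TGGTGCT in the sequence of the transcript. In the FN1 3′-UTR of 1101 bases there were 0 matches, and 0 on the opposite strand. By the same rule 7.22% of 568 known miRNA sequences of the table had a match on the FN1 strand and 7.75% on the opposite one. These are descriptions of letters in 1 annotated 3′-UTR, and nothing about binding is drawn from them.

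Many genes of the extracellular matrix carried the letters. Of 40 matrix genes, a list written with the known role of the family in view and so no independent evidence, 29 held at least 1 match (72.5%) and 10 held 2 or more. Over all 18995 genes with a 3′-UTR the share was 13.4%, and it was 16.5% when genes were weighted to the length bands of the 40. Collagens led, with 19 of 22 (86.4%). COL5A1, which encodes a chain of type V collagen, had 4 matches. COL4A4, COL5A3, ELN (elastin) and LOX (lysyl oxidase, which cross-links collagen and elastin) had 3 each. The 11 genes without a match were the collagen genes COL6A1, COL12A1 and COL18A1, the proteoglycan genes VCAN, DCN, LUM and BGN, and FN1, FBN2 (fibrillin 2), LAMB1 (a laminin chain) and THBS1 (thrombospondin 1). HSPG2, the gene of the proteoglycan perlecan, had 1.

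The sites in the fibrillar collagen genes COL1A1, COL1A2 and COL3A1 are shown as examples of what the shared seed pairs with. Each window is given 5′ to 3′ on the transcript, with the match in capitals, from GENCODE release 29 transcripts (GRCh38).
COL1A1, minus strand, chr17:50184572-50184593: ggggagggaatcacTGGTGCTa
COL1A2, plus strand, chr7:94430899-94430920: ttgaagaatgttgaTGGTGCTa
COL3A1 first site, plus strand, chr2:189012002-189012023: tcaaaatgtctcaaTGGTGCTa
COL3A1 second site, plus strand, chr2:189012442-189012463: aaagacgcatgttaTGGTGCTa
In all 4 windows the match is followed by A, the base that lies opposite the first base of the miRNA. Of 45 matches in the matrix list 23 had this A (51.1%), against 19.2% of 3086 matches over all genes. The seed is common to the members, so these letters do not separate miR-29a-3p from miR-29b-3p or miR-29c-3p.

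**Figure D5:**
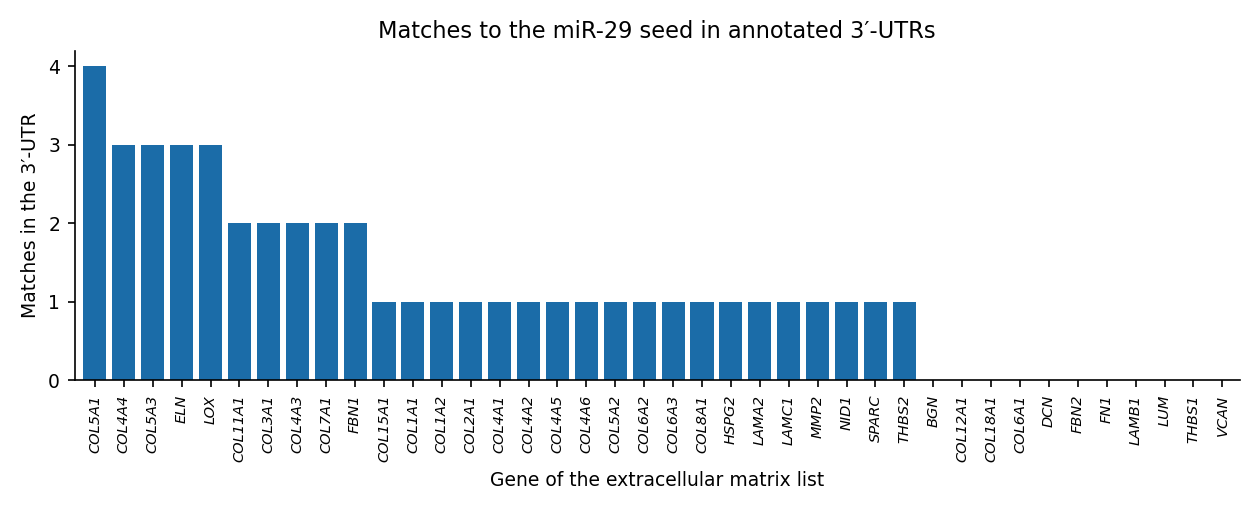
Number of matches to the miR-29 seed (bars, from 0) in the annotated 3′-UTR of each of 40 extracellular matrix genes. 29 genes have at least 1 match, led by COL5A1 with 4, and FN1 has 0.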

How the data were processed

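Small RNAs from pull-downs of 4 libraries (1 per cell line and probe) were analysed. The authors deposited raw counts per mature miRNA and a score, the tags per 1000000 tags as whole numbers. The submitters' processing notes name cutadapt 1.9.3, Novoalign 3.02.12 and hg38, and roles, settings and miRNA database are not given in the sources used here. The 901 deposited rows gave 843 names, 273 of them predicted. Divisors recovered from count and score exceeded the table totals, which were 35.7% to 50.0% of them, for a reason not given in the sources used here.

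Ratios used score + 1. Counts were fitted with edgeR 4.0.16 (R 4.3.3), filterByExpr, TMM, quasi-likelihood F-tests and adjustment by Benjamini-Hochberg. The fit was also run on simulated counts drawn from a mean profile shared by all libraries. That simulation cannot check the fit for libraries whose composition differs as much as here. Alternatives were other scalings, pseudocounts of 0.1 and 10, DESeq2 1.42.0, limma 3.58.1 (voom), other filters, a model without the other factor and known miRNAs only. Intervals came from scipy 1.17.1. Nothing in the labels names separate cultures, so p-values measure only the spread between these libraries. With cell line and probe as terms, that spread mixes noise of single libraries with any difference of the probe effect between the lines. In the edgeR fit that spread was pooled across entries. Members and lists were chosen with earlier results of these data known. Named miRNAs were the members, their other arms, entries of the same seed, 3 nearest profiles each, the 2 highest and 2 lowest of the matrix list per line, miR-372-3p and cell type markers. Genes shown for the seed were picked after the search.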

Additional observations from a re-analysis of the deposited data

How the results depend on the processing

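The log2 ratio of the family sum for the probes in HGC27 ran from -1.96 to -1.70 over 7 alternatives, all within the counting interval. In AGS it was -2.68 with raw counts, -3.43 per table total without miR-372-3p, -2.93 with TMM, -2.29 with DESeq2 size factors and -1.70 with a pseudocount of 10, always below 0.

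For AGS against HGC27 the family sum with the negative probe was -0.057 with raw counts and -1.08 per table total, and it reversed to 1.30 without miR-372-3p, 2.10 with TMM and 1.74 with DESeq2 size factors. With the positive probe it was -0.78, -1.01 and -0.34 under the first 3 and reversed to 0.87 and 1.15 under the last 2. miR-29a-3p reversed likewise, to 1.30, 2.11 and 1.74 with the negative probe and to 0.92 and 1.19 with the positive one. miR-29b-3p reversed to 0.18 with raw counts, 1.49, 2.17 and 1.89 with the negative probe and to 0.23 and 0.50 with the positive one. With the negative probe miR-29c-3p reversed to 0.56 (TMM) and 0.29 (DESeq2 size factors), on 4 counts in AGS and 11 in HGC27. For the positive probe it had no listed count in AGS. In edgeR with library totals, miR-29a-3p turned to -1.03 and miR-29b-3p to -1.17. Leaving miR-372-3p out of the total turned the sign of the family sum with the negative probe (-1.08 to 1.30) but not with the positive probe (-1.01 to -0.34), and for the other reversals the cause was not tested.

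Calls for the probe were 0 with library totals (52 at an unadjusted p under 0.05), 0 with limma-voom (72), 0 when unfiltered (66), 0 when all libraries had to reach 10 counts (16) and 0 without the cell line (17), against 32 with DESeq2 size factors in edgeR, 49 with DESeq2 and 25 with known miRNAs only. Calls for the line were 169 with library totals, 0 when unfiltered (95) and 15 when all libraries had to reach 10 counts, against 62 to 82 in the other 5. No alternative brought a member past the threshold. A ratio threshold of 4 left 62 and 40 entries lower for the probes in HGC27 and AGS, in place of 257 and 104. For the lines it left 260 (negative probe) and 242 (positive probe) in place of 529 and 515. With entries of at least 10 counts only, these 4 numbers were 122, 72, 283 and 248.

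Adding predicted entries of the same seed was not run, as there were 0, and no 5p arm had a value. With 1 library per group no replicate was left out. The labels give no replicate numbers, and the cell line served as the block that pairs the probes, in the edgeR fit as reported. Depth limits miR-29b-3p and miR-29c-3p, with 24 counts or fewer in each library.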
